A study of Mus musculus with 14 samples.

Results

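The cells described here are dopamine D1-type neurons of the mouse nucleus accumbens that also carried RNA of Tshz1, Lypd1 or Foxp2, alone or together. They were picked by their unique molecular identifier (UMI) counts. Barcodes were kept from 300 genes upward if mitochondrial UMIs were no more than 20%. A kept barcode was a member when its UMIs of Tshz1, Lypd1 and Foxp2 summed to at least 3 and those of Drd1, Tac1 and Pdyn to at least 2. In addition, those of Adora2a, Gpr6 and Drd2, and separately those of Slc17a7 and Neurod6, could sum to at most 1. The rule took 2884 of 33225 kept barcodes, and 9582 barcodes met its D1 limits whatever their Tshz1, Lypd1 and Foxp2 sum, which is called the gate sum below. The 11 genes of the rule were never tested between classes, since the rule fixed their levels.

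The tissue came from male C57BL/6 mice given an intraperitoneal injection of saline (mock) or of morphine sulfate, and was dissociated with papain and run through Drop-seq, a droplet method that reads polyadenylated RNA from single cells. There were 4 mock and 4 morphine pools of 2 mice each. Pools 1 and 2 of each treatment held mice of 37 to 45 days, called younger, and pools 3 and 4 mice of 78 to 82 days, called older. The dose and the time between injection and dissection were not given in the sources used here. Mock pools 1 to 4 gave 147, 384, 247 and 668 members, and morphine pools 1 to 4 gave 109, 735, 157 and 437. Members carried 376406 to 4163233 UMIs per pool, out of 6910203 to 24668659 per library, and no member barcode occurred in more than 1 pool. Doublets were not called.

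Medium spiny neurons are the GABA-releasing output cells of the striatum and accumbens. Those of the direct pathway express the D1 receptor Drd1 with the peptide precursors Tac1 (substance P) and Pdyn (dynorphin), and those of the indirect pathway express the D2 receptor Drd2, the adenosine receptor Adora2a and the enkephalin precursor Penk. Both kinds lie either in the calbindin-rich matrix or in striosomes, patches known for the mu opioid receptor. Eccentric spiny neurons are a further spiny type, described from single-cell data by genes such as Otof, Cacng5, Adarb2 and Tshz1. Foxp2 is a forkhead transcription factor of striatal neurons, Tshz1 a zinc-finger transcription factor and Lypd1 a membrane-anchored modulator of nicotinic receptors.

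Levels are given as CPM, the UMIs of a gene per 1000000 UMIs summed over the cells of a class in 1 pool. Comparison classes were D2 neurons (3153 barcodes with at least 2 UMIs of Adora2a, Gpr6 and Drd2 and at most 1 of Drd1, Tac1 and Pdyn), oligodendrocytes (3045 barcodes) and gate-0 D1 barcodes, which met the D1 limits with a gate sum of 0 (3340 barcodes). Oligodendrocytes had at least 3 UMIs of Mog, Mag and Ermn and at most 2 of the neuronal genes Snap25, Syt1 and Meg3. All 3 genes of the gate chose the members, so their levels are a description. Tshz1 ranged over the pools from 166 to 247 CPM in members with a median of 198, against 36.6 to 72.9 CPM in D2 neurons and 22.4 to 53.4 CPM in oligodendrocytes. Lypd1 had a median of 439 CPM in members (219 to 516), and its D2 range was 64.0 to 165 CPM. Foxp2 had a median of 509 CPM (366 to 632) in members and 63.0 CPM in D2 neurons. Oligodendrocytes, which should lack neuronal genes, still gave a median of 11.1 CPM of Foxp2 and 22.8 CPM of Drd1. This describes stray RNA only in barcodes already chosen to be low in neuronal UMIs.

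The members differed in which gate genes they carried. All 3 genes were detected together in 883 members (30.6%), Lypd1 with Foxp2 alone in 775 (26.9%), Tshz1 with Foxp2 alone in 439 (15.2%) and Tshz1 with Lypd1 alone in 201 (6.97%). A single gate gene was detected in the rest: Foxp2 in 345 members, Lypd1 in 204 and Tshz1 in 37. Taken gene by gene, Foxp2 was seen in 84.7% of members, Lypd1 in 71.5% and Tshz1 in 54.1%, so the gate was met without any Tshz1 UMI by 1324 members.

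Of the label's 6 markers, Cartpt and Dlk1 were not used by the rule, and no test between classes was made of them. Cartpt, the precursor of the CART peptide, measured 272, 153, 318 and 377 CPM in mock pools 1 to 4 and 1198, 512, 18.6 and 320 CPM in morphine pools 1 to 4. The 8 values ran from 18.6 to 1198 CPM in members, from 10.8 to 508 CPM in gate-0 D1 barcodes and from 15.5 to 705 CPM in D2 neurons, and the 3 ranges overlapped. Within pools, Cartpt was higher in members than in gate-0 D1 barcodes in 7 of 8 (means of 396 and 259 CPM), with mock pool 1 the exception, and higher than in D2 neurons in 5 of 8. Morphine pool 3 was the lowest pool in each of these classes. Dlk1, an imprinted gene for a Notch-related membrane protein, had a median of 105 CPM in members (33.4 to 212) and 144 CPM in gate-0 D1 barcodes (32.5 to 248). Its D2 median was 25.5 CPM, with a range of 6.33 to 61.8 CPM. Dlk1 was higher in members than in D2 neurons in 8 of 8 pools and lower than in gate-0 D1 barcodes in 5 of 8. Its range in members too overlapped with those in gate-0 D1 barcodes and in D2 neurons. Of the spiny barcodes defined below, members had the higher Cartpt in 3 of 8 pools and the lower Dlk1 in 7 of 8.

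**Figure D1:**
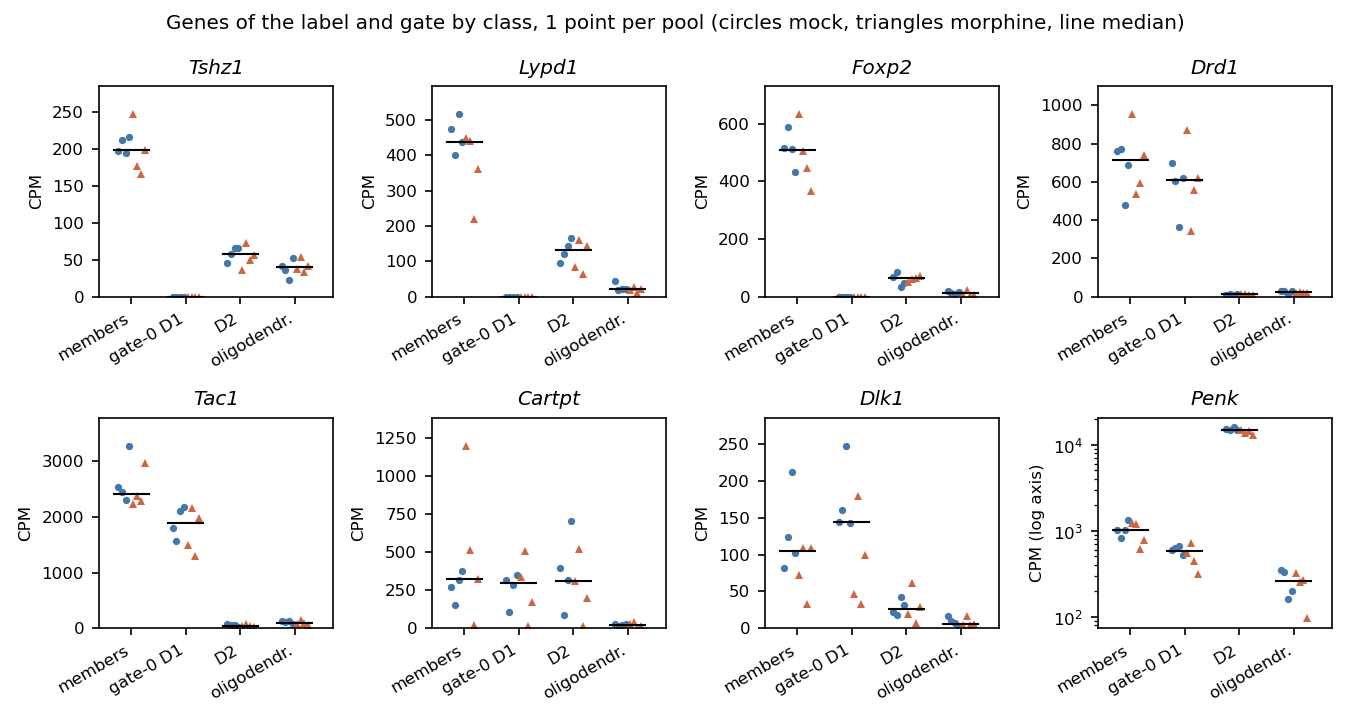
Levels of 8 genes in CPM (vertical axes, Penk on a log axis) in members, gate-0 D1 barcodes, D2 neurons and oligodendrocytes, with 1 point per pool (circles mock, triangles morphine) and a line at the median. Tshz1, Lypd1 and Foxp2 are high in members by the rule and 0 in gate-0 D1 barcodes, while Cartpt and Dlk1 overlap between members and gate-0 D1 barcodes, with medians of 319 and 296 CPM for Cartpt.

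The gate also depended on how deeply a barcode was read. When D1 barcodes were split into 5 equal bins by total UMIs, members made up 9.29%, 20.3%, 27.7%, 38.5% and 54.8% of them from the shallowest to the deepest. The median barcode held 2153.5 UMIs at a gate sum of 0 and 6479.5 at a sum of 10 or more. Just outside the threshold, 1318 barcodes with a sum of 2 had a median of 3450 UMIs, and just inside it 796 barcodes with a sum of 3 had 4104.5. The comparison with gate-0 D1 barcodes is therefore also given below for pairs matched on total UMIs.

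Against D2 neurons, members carried more RNA of the other D1 genes and less of the D2 genes, by edgeR's quasi-likelihood test with pool as a block. The D2 class was itself chosen to be low in Drd1, Tac1 and Pdyn, and the members to be low in Adora2a, Gpr6 and Drd2. The direction of genes that go with these follows from the choice of both classes and is a description. Of 10172 genes tested, 633 were higher in members (6.22%) and 683 lower (6.71%) at a Benjamini-Hochberg adjusted p under 0.05, together 12.9% of genes. All 5 tested D1 genes outside the rule were higher: Slc35d3, a transporter, with 91.4 ± 19.5 CPM (SD, n = 8 pools) against 3.87 ± 1.21 in D2 neurons (log2 difference 4.54), the muscarinic receptor gene Chrm4 (4.30), the transcription factor genes Isl1 (3.68) and Ebf1 (3.15), and Sfxn1 (2.06). All 5 tested D2 genes were lower, among them Penk (log2 difference -3.96), the purinergic receptor gene P2ry1 (-3.68), the kainate receptor gene Grik3 (-2.74) and the transcription factor gene Sp9 (-1.73). Penk still measured 994 ± 240 CPM in members, against 14616 ± 976 in D2 neurons and a median of 260 in oligodendrocytes. Asic4 (an acid-sensing channel, 3.596) and Rab3b (a synaptic vesicle GTPase, 2.48) were also higher in all 8 pools. Gucy1a1, a subunit of the nitric oxide receptor, was lower by 1.64 in all 8 pools, on the log2 scale.

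Genes of eccentric spiny neurons were higher in members than in D2 neurons in 6 of 6 tested cases, with a median log2 difference of 2.08 against -0.0022 over all genes. Striosome genes were higher in 4 of 8 and lower in none, and matrix genes were lower in 6 of 8 and higher in 1. Of 30 striatal transcription factor genes, 11 were higher and 8 lower. Endothelial markers were higher in 5 of 7 tested, and their summed level ran from 116 to 803 CPM in members and from 111 to 273 CPM in D2 neurons. All 4 red blood cell genes tested were lower in members (median -1.61), and the summed level of the list ran from 118 to 1177 CPM in members and from 109 to 2765 CPM in D2 neurons. The part of these other cells' genes in the differences was not tested. The 585 members with fewer than 3 UMIs of each of the oligodendrocyte, astrocyte, microglia and endothelial marker lists are called low in other-cell UMIs. Interneuron, precursor and red blood cell genes were not screened for this. With only these members, 462 genes were called in place of 1316. That fit had fewer cells, and it dropped morphine pool 3, whose 5 such members were under the minimum of 10.

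Against all gate-0 D1 barcodes, 837 of 10193 genes were higher in members (8.21%) and 1125 lower (11.0%), together 19.2%, by edgeR. The falls were led by genes of other cells. All 10 oligodendrocyte markers were lower in members with a median log2 difference of -2.02, as were 9 of 9 astrocyte, 9 of 9 microglia and 5 of 6 interneuron markers. Opalin, a myelin gene, measured 20.4 ± 10.6 CPM in members and 124 ± 97.7 in gate-0 D1 barcodes, and Sst, the somatostatin precursor of interneurons, 362 ± 227 against 1987 ± 1041. The summed oligodendrocyte markers ranged from 1561 to 7176 CPM in members and from 5064 to 33643 CPM in gate-0 D1 barcodes. Rises in this comparison included Rxrg, the retinoid X receptor gamma gene (log2 difference 1.39), and Necab1, for a neuronal calcium-binding protein (1.31).

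Both classes were therefore restricted, after this was seen, to barcodes with at least 5000 CPM summed over 12 genes of medium spiny neurons such as Ppp1r1b (DARPP-32). This left 2486 members and 2240 gate-0 D1 barcodes, called spiny below, with medians of 4804.5 and 2194.5 UMIs. Their summed oligodendrocyte markers then ran from 1469 to 5609 and from 1688 to 4215 CPM. Among the 398 members left out, Npy of interneurons reached 9692 CPM in the highest pool, and Drd1 had a median of 225 CPM against 761 in spiny members.

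In spiny barcodes, members had more RNA of Necab1, Rab3b, Rxrg and Nnat, and less of Calb1 and 5 other genes of the 8 on the matrix list. Of 8860 genes, 94 were higher (1.06%) and 103 lower (1.16%), together 2.22%, by edgeR's quasi-likelihood test with pool as a block and adjusted p under 0.05. Necab1, at chromosome 4 from 14952245 to 15149804 of GRCm38, measured 188, 179, 140 and 225 CPM in members of mock pools 1 to 4 and 176, 148, 148 and 215 CPM in those of morphine pools 1 to 4. The matching gate-0 values were 44.0, 70.7, 40.9 and 85.0 CPM, and 67.9, 96.6, 38.7 and 98.8 CPM. The 2 sets of 8 values did not overlap, and the log2 difference was 1.32 (SE 0.0966, adjusted p = 9.22e-14 by edgeR). Rab3b (chromosome 4, 108879070 to 108943324) measured 182 ± 42.8 against 75.3 ± 23.5 CPM (log2 difference 1.24, SE 0.0863, edgeR adjusted p = 4.00e-14) and was higher in 8 of 8 pools. Rxrg (chromosome 1, 167598362 to 167639623) measured 161 ± 36.7 against 82.8 ± 12.8 CPM, a log2 difference of 0.98 in the same direction in all 8 pools. Nnat, an imprinted membrane protein gene (chromosome 2, 157560078 to 157562525), measured 341 ± 105 against 194 ± 76.5 CPM, a log2 difference of 0.79 with overlapping ranges and a rise in each of the 8 pools.

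Other large rises, each present in 8 of 8 pools, were the RNA-binding protein genes Elavl4 (1.42), Ralyl (1.01) and Khdrbs3 (0.64), the GABA-A receptor subunit gene Gabra3 (1.33), the kinase gene Camk2d (0.99), the Rac regulator gene Chn2 (0.77) and the calcium pump gene Atp2b4 (0.75). Over all barcodes, with other cells' RNA in the comparison class, Elavl4 differed by -0.09 and Nnat by 0.17, and neither was called. Of the 94 rises, 71 were also called over all barcodes in the same direction and 5 in the opposite direction.

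The falls were smaller. Calb1, which encodes calbindin and lies on chromosome 4 from 15881264 to 15906709, measured 387 ± 104 CPM in spiny members and 545 ± 161 in spiny gate-0 D1 barcodes. It was lower in 8 of 8 pools, although the ranges of the classes overlapped, with a log2 difference of -0.47 (SE 0.0574, edgeR adjusted p = 1.59e-07). Rgs12, a regulator of G protein signalling, fell by 0.95, Stxbp6 by 0.60, and the POU-domain transcription factor genes Pou3f3 and Pou3f1 by 0.55 and 0.50, on the log2 scale and in every pool. Id4, a helix-loop-helix inhibitor, fell by 0.46 and Mef2c, an activity-regulated transcription factor gene, by 0.30. Of the 103 falls, 65 were also called over all barcodes and 4 were called there in the opposite direction.

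**Figure D2:**
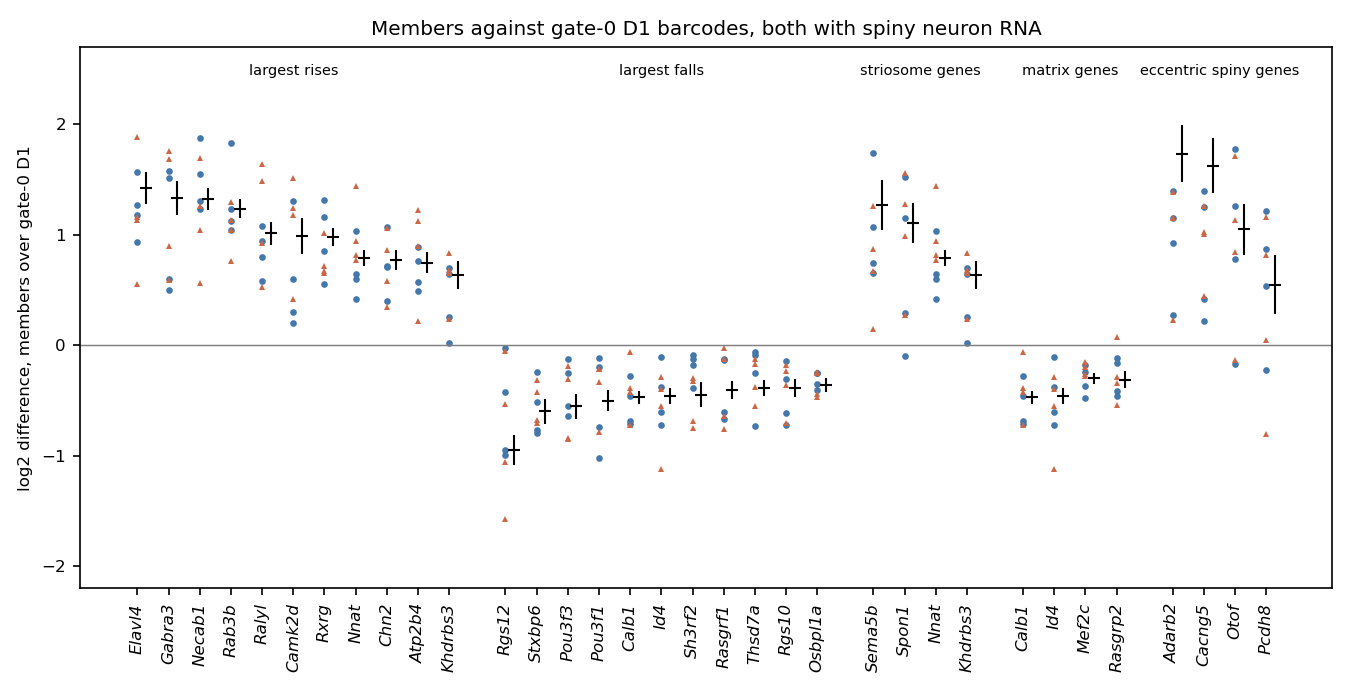
Log2 differences between spiny members and spiny gate-0 D1 barcodes (vertical axis) for 11 of the 12 largest rises, 11 of the 12 largest falls and 3 gene lists, with 1 point per pool (circles mock, triangles morphine, ratio of CPM after adding 10 CPM) and the edgeR estimate with its standard error in black. The largest rises and falls were picked among called genes on the same side in all 8 pools, with at least 50 CPM in the higher class. Their agreement over pools is therefore no result. Otof, from a list, has 2 pools below 0.

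Described by list, 4 of 6 striosome genes were higher and none lower, with a median log2 difference of 0.71 against 0.00 over all genes tested. These were Sema5b, a semaphorin (25.5 ± 4.06 against 9.62 ± 5.70 CPM, 1.27), Spon1, the secreted F-spondin (1.11), Nnat and Khdrbs3. Matrix genes were lower in 6 of 8 cases and higher in none, with a median of -0.30, and included Calb1, Id4, Mef2c and Rasgrp2 (-0.31). Oprm1, the mu opioid receptor gene and a defining striosome gene, was too low to test, with 4.30 ± 1.90 CPM in spiny members and 2.02 ± 2.04 in spiny gate-0 D1 barcodes. Oprk1, the kappa receptor gene, measured 81.6 ± 17.4 and 85.3 ± 19.5 CPM (log2 difference -0.08, SE 0.0943, edgeR adjusted p = 0.838).

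Eccentric spiny neuron genes were higher in 3 of 5 tested cases, with a median of 1.05. Adarb2, of the RNA-editing enzyme family, measured 21.6 ± 8.04 against 6.05 ± 3.11 CPM (1.74), and Cacng5, an AMPA receptor auxiliary subunit, 21.0 ± 5.77 against 6.92 ± 3.23 CPM (1.62). Otof, otoferlin, was called with a log2 difference of 1.05 and was higher in 6 of 8 pools, and Pcdh8, a protocadherin, was not called (0.55, edgeR adjusted p = 0.418).

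Among peptides, Penk was higher in members at 1028 ± 270 against 734 ± 272 CPM (0.51), and Nts, neurotensin, at 163 ± 152 against 98.8 ± 115 CPM (0.90, 7 of 8 pools). They were 2 of 17 tested peptide genes that rose, and Chga, a granin, was the 1 that fell. Of 23 transcription factor genes, 5 were higher and 4 lower, among them Meis2 (0.25) and Foxp1 (-0.17). Of 12 GABA-A receptor subunits, 2 rose, Gabra3 and Gabrg3 (0.45), and 2 fell, among them Gabrg1 (-0.82). In cAMP signalling, 3 of 16 genes rose, among them Gnas, the stimulatory G protein (0.43), and Pde4b, a phosphodiesterase (0.43), and 1 fell, Pde1a, another phosphodiesterase (-0.56). Gnas was called lower over all barcodes, at -0.66. Of 47 adhesion and guidance genes, 4 rose, including Sema3e (0.65) and Ntng1 (1.18), and 6 fell, including Cntnap5a (-0.65). None of 11 ionotropic glutamate receptor genes, 25 potassium channel genes or 14 immediate early genes was called. Gad2, a GABA-synthesis enzyme, was higher at 1654 ± 370 against 1346 ± 362 CPM. Of 5 tested D1 genes outside the rule, 0 were higher and 1 was lower (median -0.35). Over all barcodes, 2 of 5 were higher and 0 lower (median -0.10).

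Markers of other cells and depth moved with this comparison too. All 4 red blood cell genes tested were lower in spiny members (median -1.35), as were 4 of 9 astrocyte and 2 of 10 oligodendrocyte markers, and none of these was higher. Their part in the gene differences was not tested. In 1420 spiny members and 1420 spiny gate-0 D1 barcodes matched on total UMIs, 146 genes were called higher and 113 lower. These held 67 of the 94 rises and 54 of the 103 falls, or 45.9% and 47.8% of the matched calls. Matched log2 differences were 1.59 for Necab1, 1.31 for Rab3b, 1.07 for Rxrg, 0.93 for Nnat and -0.81 for Calb1. DESeq2 called 75 genes and left Penk at an adjusted p of 0.100, Otof at 0.0858, Rasgrp2 at 0.112 and Pde1a at 0.660, and did not call Foxp1, Gabrg1 or Gabrg3. The edgeR count was 130 without mock pool 4 and 15 without the pool block.

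Levels of single genes by gate sum were read from spiny D1 barcodes pooled over all libraries. Necab1 measured 72.6 CPM at a sum of 0, 88.0 at 2, 103 at 3, 191 at 5 to 9 and 391 at 10 or more. Rab3b went from 79.1 to 302 CPM between the same ends, Rxrg from 82.9 to 233 and Nnat from 200 to 541. Calb1 went the other way, from 555 CPM at a sum of 0 to 445 at 3 and 167 at 10 or more, as did Dlk1, from 179 to 117 and 65.0. Penk showed 704 CPM at 0, 743 at 2, 638 at 3 and 998 at 5 to 9, and reached 2210 CPM only at 10 or more. Nts measured 97.3 CPM at 2, 186 at 3, 167 at 5 to 9 and 163 at 10 or more. Drd1, which the rule itself used, stayed between 690 and 825 CPM. Of all 9582 D1 barcodes, 420 had a sum of 10 or more. These are pooled values with no test, and the deep libraries weigh most in them.

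**Figure D3:**
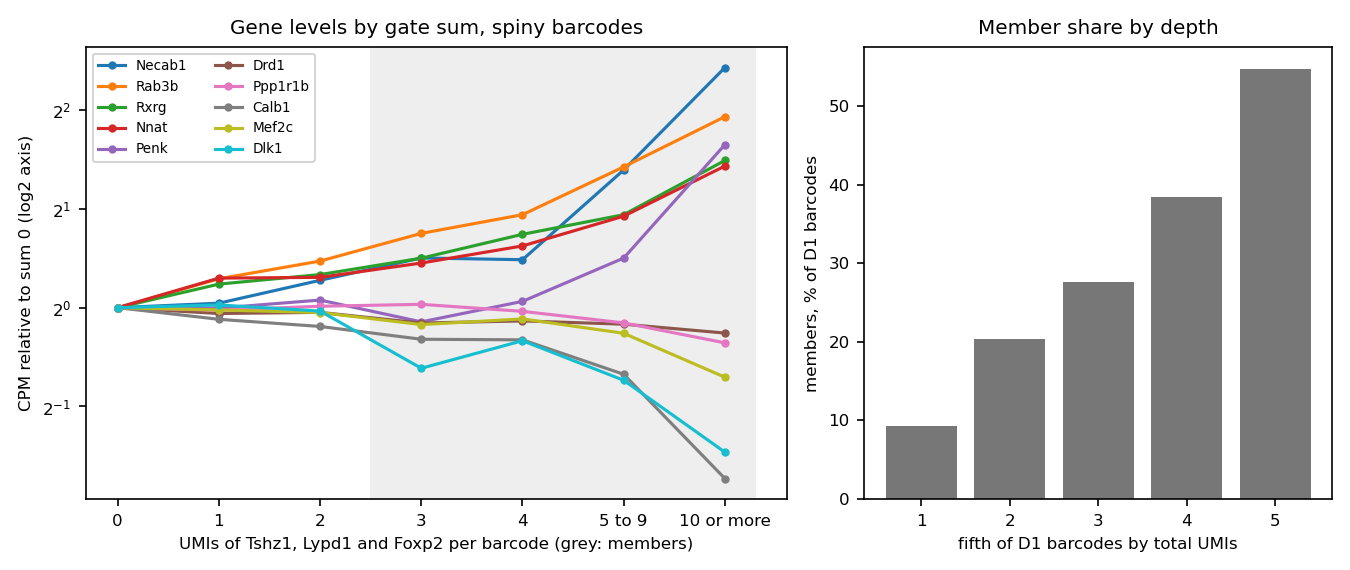
Left, CPM of 10 genes relative to a gate sum of 0 (log2 vertical axis) by gate sum in spiny D1 barcodes pooled over libraries, with the sums of members in grey. Necab1 goes from 72.6 to 391 CPM and Calb1 from 555 to 167 CPM between the end points. Right, the share of members among D1 barcodes in 5 bins by total UMIs, from 9.29% to 54.8%.

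Spiny members were then split by Tshz1, itself a gene of the gate, so that members without it had reached the gate through Lypd1 and Foxp2 alone. At least 1 Tshz1 UMI was held by 1335 and none by 1151, with medians of 4924 and 4709 UMIs. Tshz1 counts in the gate sum, and the 2 sets also differed in that sum, with medians of 5 and 4 and means of 6.78 and 4.79. Unmatched values of this split cannot tell Tshz1 and gate sum apart. Of 7779 genes, 115 were higher with Tshz1 (1.48%) and 79 lower (1.02%), together 2.49%, by edgeR with pool as a block. Necab1 measured 250 ± 36.0 CPM with Tshz1 and 101 ± 28.5 without (log2 difference 1.21, SE 0.0906, edgeR adjusted p = 1.22e-13), and the 2 ranges, 181 to 294 and 56.6 to 126 CPM, did not overlap. Penk measured 1379, 944, 1839 and 1902 CPM with Tshz1 in mock pools 1 to 4 and 1012, 1686, 858 and 1047 CPM in morphine pools 1 to 4. Without Tshz1 it measured 797, 615, 495 and 580 CPM, and 1462, 710, 385 and 342 CPM. It was higher with Tshz1 in 7 of 8 pools, with morphine pool 1 the exception, and the log2 difference was 1.17 (SE 0.107, edgeR adjusted p = 8.38e-11).

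Further genes that were higher with Tshz1 in 8 of 8 pools were Sema5b (1.55), Otof (1.49), Elavl4 (1.31), Spon1 (1.18) and Gabra3 (0.98). For those from the largest rises and falls of this split, agreement over pools was a condition of being named and is no result. Nts was lower with Tshz1 in 8 of 8 pools at 97.4 ± 86.6 against 228 ± 226 CPM (-1.05), so that Penk and Nts, both higher in members than in gate-0 D1 barcodes, took opposite sides of this split. Cadherin 7 (Cdh7, -0.63), Id4 (-0.50), Calb1 (-0.51) and the D1 gene Sfxn1 (-0.42) were also lower. Isl1, a D1 transcription factor, measured 62.3 ± 17.8 against 92.3 ± 20.2 CPM (-0.44). Its edgeR call (adjusted p = 0.0180) held in 4 of the 8 fits with 1 pool left out and was lost under DESeq2.

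Most of these calls were lost when the 2 sets were matched on gate sum. In 929 members with and 929 without Tshz1, with equal numbers at each gate sum of a pool, edgeR called 19 of 6788 genes higher (0.280%) and 3 lower (0.0442%). These held 17 of the 115 rises and 3 of the 79 falls. Necab1 kept its call with a log2 difference of 0.77 (edgeR adjusted p = 3.34e-06), as did Nts (-1.03, edgeR adjusted p = 7.01e-07), Penk (0.64), Otof (1.08), Elavl4 (0.93), Spon1 (0.83), Gabra3 (0.62), Nrxn2 (0.75) and Kcnip4 (0.46). Calb1 (-0.26, edgeR adjusted p = 0.0670), Id4 (-0.29), Cdh7 (-0.39), Sfxn1 (-0.21) and Isl1 (-0.25) were no longer called, and Sema5b was too low to test. The gate sum counts Tshz1 itself, so at an equal sum the members with Tshz1 held fewer UMIs of Lypd1 and Foxp2. The part of that difference in the kept calls was not tested. The matched fit also had fewer cells, and the part of their number in the lost calls was not tested.

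By list and without matching, 4 of 5 eccentric spiny neuron genes (median 1.27) and 3 of 6 striosome genes (0.41) were higher with Tshz1 and none lower, while 3 of 8 matrix genes were lower and none higher. Of 43 adhesion and guidance genes 11 rose, among them Ntng1 (1.37), Pcdh8 (1.27), Nrxn2 (0.89) and Pcdh7 (0.74), and 4 fell. The potassium channel genes Kcnj3 (0.79) and Kcnip4 (0.73) rose among 24. Of the 197 genes called between spiny members and gate-0 D1 barcodes, 38 rises and 20 falls were called here in the same direction. Another 2 rises were called in the opposite direction. Both comparisons also differed in gate sum, so this overlap is no independent result. Both microglia markers tested were higher with Tshz1, and the summed microglia markers ran from 95.1 to 360 CPM with it and from 54.3 to 182 CPM without. All 10 oligodendrocyte markers had log2 differences above 0 and 1 was called. Their part in the result was not tested. DESeq2 called 97 genes, and edgeR called 109 without mock pool 4, 13 without the pool block and 307 over all members in place of spiny ones.

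**Figure D4:**
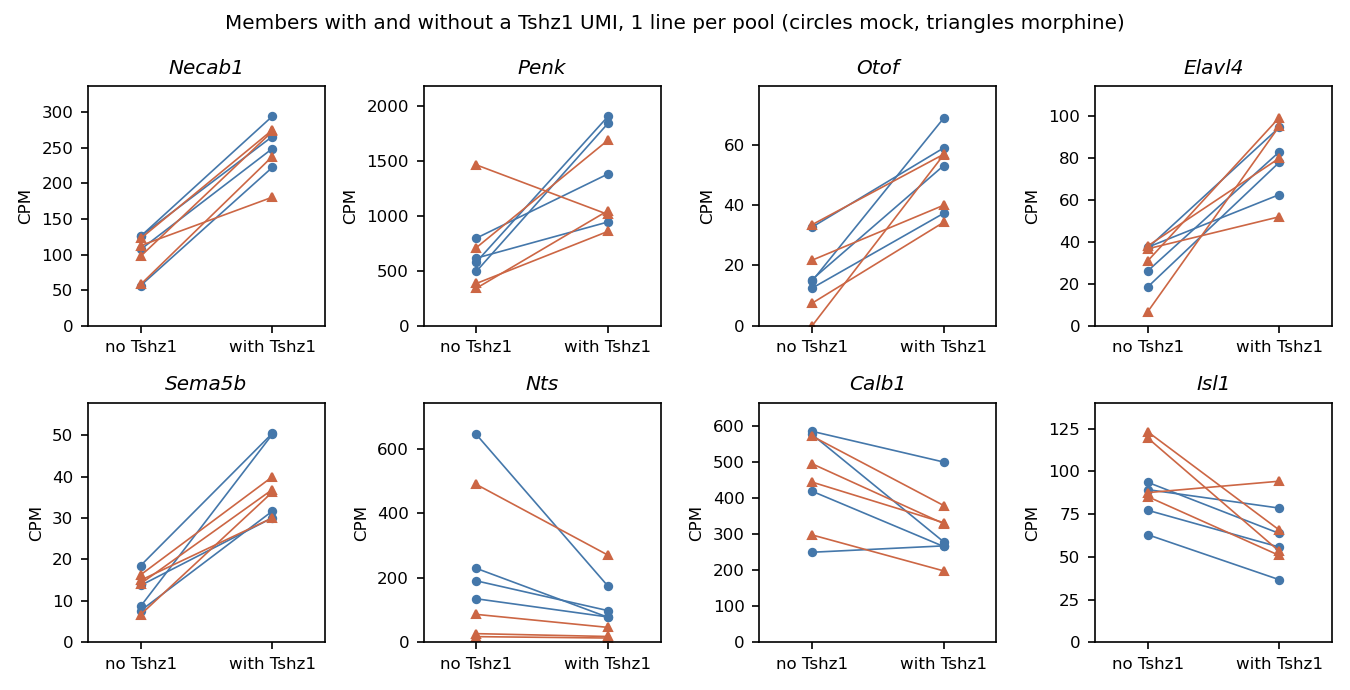
CPM of 8 genes (vertical axes) in spiny members without and with a Tshz1 UMI, with 1 line per pool (circles mock, triangles morphine). The sets are not matched on gate sum. Genes from the largest rises and falls were picked for agreement over the pools. Necab1, Otof, Elavl4 and Sema5b are higher with Tshz1 in all 8 pools and Nts is lower in all 8, while Penk has 1 pool going the other way.

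In members no gene passed an adjusted p of 0.05 between morphine and mock pools by edgeR, among 10396 tested (0%), and 199 had an unadjusted p under 0.05. DESeq2 called 1 gene, mt-Rnr2, the large ribosomal RNA of mitochondria. It measured 19593, 16650, 16661 and 20622 CPM in mock pools 1 to 4 and 27268, 31756, 29753 and 44946 CPM in morphine pools 1 to 4. The groups did not overlap, and the log2 difference was 0.93 (SE 0.180, edgeR unadjusted p = 0.000125, adjusted p = 1.00, DESeq2 adjusted p = 0.00111). CPM of the 2 groups did not overlap, with morphine higher, for 48 genes (0.462%), and with morphine lower for 158 (1.52%). The 2 mitochondrial ribosomal RNAs tested, mt-Rnr2 among them, had log2 differences of 0.58 and 0.93, and neither was called by edgeR. The 7 mitochondrial mRNAs tested had a median log2 difference of -0.04, and the median over all genes was 0.00. The share of mitochondrial UMIs per member counts mt-Rnr2 too, so it is not a separate observation. It was higher in morphine pools, with a pool median of 4.67 ± 0.646% against 3.06 ± 0.433% (SD, n = 4, exact two-sided permutation p = 0.0286, the smallest that 4 against 4 pools allow). In gate-0 D1 barcodes of the same pools it was 5.31 ± 0.942% against 3.75 ± 0.674% (difference 1.56 percentage points, n = 4, exact two-sided permutation p = 0.0286). Among members, the difference was 1.15 percentage points among younger and 2.08 among older pools.

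Glucocorticoid-responsive genes, a group of stress-hormone targets, were not called (0 of 22), with a median log2 difference of 0.39 and 0 of 22 showing groups that did not overlap. Fkbp5, a glucocorticoid receptor co-chaperone, measured 58.8, 66.7, 51.3 and 89.8 CPM in mock and 98.3, 88.9, 100.1 and 74.2 CPM in morphine pools 1 to 4 (0.43, SE 0.189). Cdkn1a, a cell-cycle inhibitor, measured 31.9, 37.2, 28.3 and 53.6 CPM and then 95.6, 63.2, 68.7 and 51.5 CPM (0.80, SE 0.231), overlapping by mock pool 4 and morphine pool 4. Sgk1, a kinase, measured 62.2, 85.6, 58.1 and 45.6 CPM and then 85.0, 56.9, 78.5 and 66.9 CPM (0.22, SE 0.205), with fully overlapping groups. Immediate early genes were not called either (0 of 18, median 0.47). Mock pools held 72.3 to 127 CPM of Junb and morphine pools 126 to 258 CPM, and for Nr4a3 the ranges were 7.93 to 20.7 and 13.3 to 35.4 CPM. Heat shock genes had a median of -0.07 over 12 and opioid signalling genes of -0.03 over 13. Oprk1 measured 74.1 CPM on average in mock and 71.6 in morphine pools (0.01, SE 0.211), and Penk 1042 and 946 (-0.09, SE 0.208). Hbb-bt of red blood cells had the largest fall among named genes, at 59.8 against 10.1 CPM, and the 4 red blood cell genes had a median of -2.36. Summed over the list, mock pools held 175 to 1177 CPM and morphine pools 118 to 298 CPM.

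**Figure D5:**
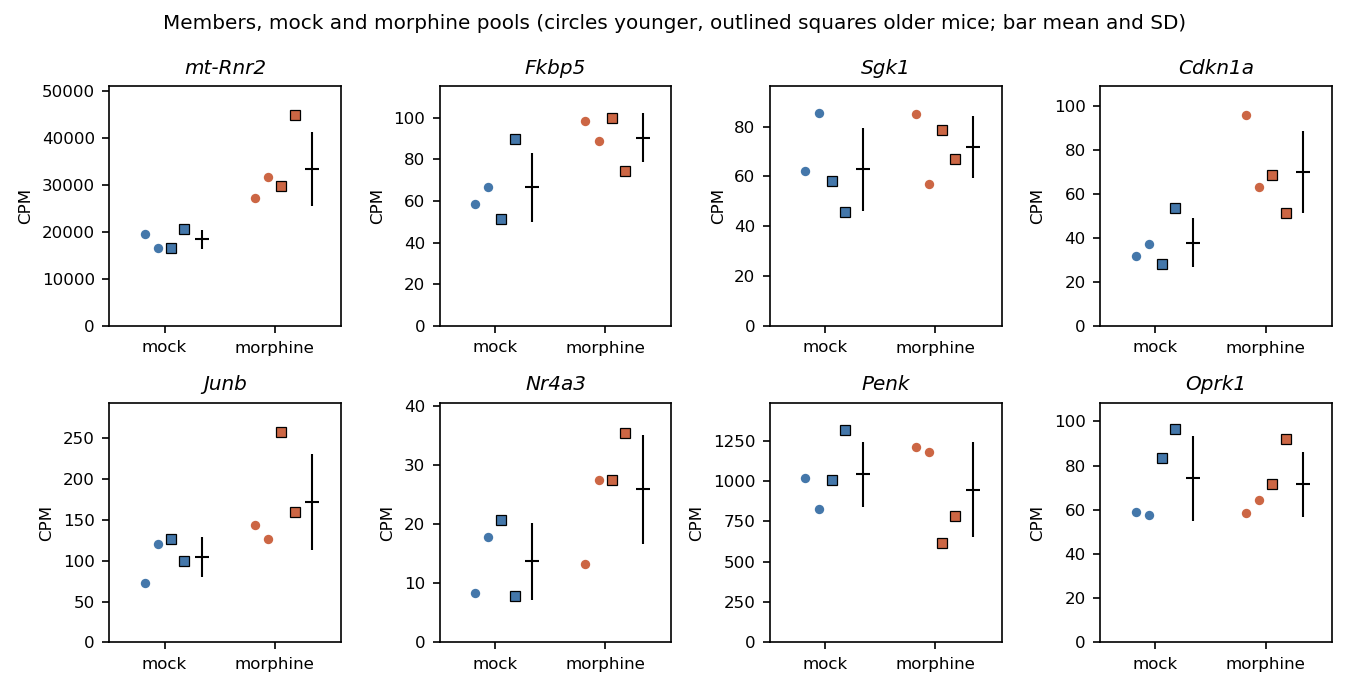
CPM of 8 genes in members (vertical axes) in the 4 mock and 4 morphine pools, with circles for younger and outlined squares for older mice and bars for mean and SD. The groups are separate for mt-Rnr2, at 16650 to 20622 and 27268 to 44946 CPM, and overlap for the other 7 genes.

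Whether morphine acted differently on members than on gate-0 D1 barcodes was tested as an interaction. No gene of 11029 was called by edgeR (0%), 332 had an unadjusted p under 0.05 and DESeq2 called 0. The interaction was -0.50 for Cdkn1a (SE 0.186, unadjusted p = 0.0146, edgeR adjusted p = 1.00), -0.26 for Sgk1, -0.19 for Fkbp5 and 0.09 for mt-Rnr2, on the log2 scale. Members made up 17.5%, 26.0%, 33.7% and 37.8% of D1 barcodes in mock pools 1 to 4 and 13.9%, 34.8%, 23.5% and 36.5% in morphine pools 1 to 4. The means of 28.7 ± 8.95% and 27.2 ± 10.6% differed by less than the spread between pools (SD, n = 4, exact two-sided permutation p = 0.771). Barcodes with at least 1500 UMIs were also thinned to 1500, which left out 10493 shallower kept barcodes. Among the 6871 barcodes that then met the D1 limits, the means were 11.3 ± 3.53% and 10.2 ± 2.22%. The sign of the unthinned difference turned when mock pool 3, mock pool 4 or morphine pool 1 was left out, with values of 0.104, 1.44 and 2.87 percentage points.

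Age went with pool number in both treatments, so other properties of these pools cannot be told apart from it. Both first pools, whose gene symbols differed from those of the other pools, were in the younger group. Between ages, 1 of 10396 genes was called in members by edgeR with treatment as a covariate (0.00962%), and 867 had an unadjusted p under 0.05. It was Apod, an apolipoprotein of glia (chromosome 16, 31296192 to 31314808). It measured 155 to 270 CPM in the 4 younger pools and 58.9 to 119 CPM in the 4 older pools, groups that did not overlap (older minus younger -1.29, SE 0.162, edgeR adjusted p = 0.0211). The call held without morphine pool 1 (0.0266) and without morphine pool 3 (0.0211) and was lost without any of the other 6 pools. Oligodendrocytes held 4256 to 7411 CPM of Apod. Trf, transferrin, an oligodendrocyte marker, measured 43.9 ± 13.9 CPM in older and 103 ± 18.1 in younger pools (edgeR adjusted p = 0.186). Summed astrocyte markers ran from 866 to 1452 CPM in younger and 539 to 840 CPM in older pools without overlap, and oligodendrocyte markers from 2651 to 7176 and 1561 to 6340 CPM. Their part in the result was not tested. Npas4, a neuronal activity gene, was higher in older pools at 31.7 ± 11.3 against 11.8 ± 6.81 CPM (edgeR adjusted p = 0.310, DESeq2 0.0300). Oprk1 had 57.8 to 64.2 CPM in younger and 71.6 to 96.6 CPM in older pools, separate ranges with a log2 difference of 0.58 (edgeR adjusted p = 0.454), beside 179 genes (1.72%) that were higher and 349 (3.36%) that were lower in older pools without overlap. Members were 23.0 ± 9.33% of D1 barcodes in younger and 32.9 ± 6.46% in older pools (exact two-sided permutation p = 0.171). After the same thinning, which left out barcodes under 1500 UMIs, they were 9.91 ± 2.696% and 11.6 ± 3.00% (n = 4, exact two-sided permutation p = 0.429). Unthinned, the median UMIs per member were 3679 ± 938 and 5201 ± 810 (p = 0.0571 by the same exact permutation test).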

How the data were processed

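The authors deposited, per pool, a table of UMI counts per gene and barcode. Per the submitters' processing notes the tools included STAR 2.4.2a and Trimmomatic 0.36, with the mm10 build. Which tool served which samples is not given in the sources used here. The 36000 deposited barcodes were filtered as in the rule. Members, gene lists and tests were chosen with earlier results of these data known. The 6 bulk oligodendrocyte samples were not analysed here. Pools used different symbol sets: 1234 symbols were renamed to current ones, 6119 found only in the first pools were left out and 20856 were used.

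Counts were summed per pool and class, and tested with edgeR 4.0.16 (R 4.3.3; TMM factors, filterByExpr, quasi-likelihood F-test, Benjamini-Hochberg adjustment over all genes tested). Classes were compared with pool as a block, since both classes came from the same pools. DESeq2 1.42.0, other factors, no filter, depth matching, stricter gates and each pool left out were alternatives. Single values were tested by exact permutation over pools. The spiny restriction and the Tshz1 split, with its match on gate sum, were added after the data were seen. P-values for morphine and age measure the spread between pools of 2 mice. With pool as a block, those between classes and for the interaction measure how the class difference within a pool varied from pool to pool. Antisense and overlapping genes, and paralogs such as the globin genes, may share reads.

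When members were compared with gate-0 D1 barcodes or split by Tshz1, named genes were the 12 largest called rises and falls. These had to lie on the same side in all pools, with at least 50 CPM in the higher class. For the other comparisons they were the called genes or those of smallest p. Added to these were up to 4 genes of smallest p per list and the opioid and label genes. Coordinates are RefSeq's for GRCm38.p6, the assembly of mm10. Mock and morphine samples of the same number were not treated as pairs. A few of these genes are not reported here.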

Additional observations from a re-analysis of the deposited data

Results flagged for a closer look

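Of 180 groups of 4 to 8 pool values examined, 6 held a value far from the others by Dixon's criterion at the 95% level, and chance gives about 1 group in 20. Arid4b, a chromatin protein gene, had a lowest mock pool of 129 CPM, with the other 3 between 202 and 215 CPM. Rbm3, a cold-inducible RNA-binding protein gene, had a highest morphine pool of 63.8 CPM, with the others between 49.1 and 50.5 CPM.

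Among per-pool log2 ratios of spiny members to spiny gate-0 D1 barcodes, Sema3e had 1 pool at -0.28 where the other 7 lay between 0.54 and 0.96. Oprk1 had 1 pool at 0.75 where the other 7 lay between -0.41 and 0.10. Among ratios of members with to members without Tshz1, Cdh7 had 1 pool at -0.95 (others -0.63 to -0.34) and Gpr155 1 pool at -1.92 (others -0.54 to -0.10).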

How the results depend on the processing

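Counts of called genes changed with the treatment of other cells' RNA and with the pool block. Fits with members low in other-cell UMIs, as defined above, held 585 members (and 857 such gate-0 barcodes where both classes were restricted). They dropped morphine pool 3, so they also had fewer cells and pools. Members against gate-0 D1 barcodes gave 1962 genes, 1049 with members low in other-cell UMIs and 75 with both classes low in them. The count was 197 in spiny barcodes, 726 without the pool block, and 1421 to 2030 with 1 pool left out. In spiny barcodes Sst, Mog and Mag turned to 0.59, 0.084 and 0.17. The spiny comparison gave 197, 75 by DESeq2, 15 without the pool block and 321 at a gate of at least 5 UMIs. Matched on total UMIs it gave 146 higher and 113 lower, and with 1 pool left out 130 (without mock pool 4) to 194 genes. The Tshz1 split gave 194, 97 by DESeq2, 13 without the pool block, 22 matched on gate sum (where Nnat turned to -0.077), 307 over all members, and 109 (without mock pool 4) to 217. Members against D2 neurons gave 1316, 462 with members low in other-cell UMIs, and 1022 to 1276 with 1 pool left out. Morphine gave 0, and 1 by DESeq2, with no filter or with members low in other-cell UMIs. Each fit with 1 pool left out gave 0. The replicate block, for mock and morphine pools of the same number, gave 0 calls (355 at an unadjusted p under 0.05); residual correlations of same-number pools were 0.356, -0.043, -0.044 and 0.67. Age gave 1, 13 by DESeq2, 95 with no filter, 5 with members low in other-cell UMIs and 0 without the treatment covariate. It gave 5 in mock and 3 in morphine pools alone, 2 in spiny members and 0 to 10 with 1 pool left out. The interaction gave 0, 31 with no filter and 2 with gate-0 barcodes matched on UMIs. Signs turned for morphine effects that were not called. Sgk1 was -0.18 in younger pools and Cartpt -0.90 in older pools. Penk was 0.24 with members low in other-cell UMIs, 0.41 in younger pools and -0.23 to 0.059 with 1 pool left out (0.055 in another fit). Oprk1 was -0.00358 with no filter, -0.065 in older pools and -0.18 to 0.21 with 1 pool left out (-0.071 and -0.11 in other fits). Signs also turned for the interactions of Fkbp5 (0.023, matched) and mt-Rnr2 (-0.031 at a gate of at least 5, -0.0089 in spiny barcodes). With 1 pool left out, morphine minus mock ranged from -5.31 to 2.87 points for the members' share, -209 to 1047 for median UMIs and 1.31 to 1.80 points for the mitochondrial share, which then could not reach 0.05 by the exact test. Older minus younger ranged from 6.80 to 13.8 points, 1112 to 1842 UMIs and -0.574 to 0.438 points. Of all 2502 gene values over 164 gene results, those above included, 2278 kept direction and side of the threshold, 182 lost a call, 24 gained one and 18 changed sign. The causes were not tested.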
